A study of Mus musculus with 2 samples.

Results

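Dusp1, Dusp2, Dusp4, Dusp5, Dusp6, Dusp10, Spry1, Spry2, Spred1 and Spred2 encode inducible inhibitors of the Ras, ERK and related MAP kinase pathways. They are described here in bone marrow (BM) LSKs, the lineage-negative, Sca1-positive and c-Kit-positive cells that hold hematopoietic stem and progenitor cells. The 10 genes, of 34745 listed, were chosen by name with their lower values at week-3 already known, so their direction is a description and was not tested. RNA-seq was made from Scl/tTA-BA mice on the C57BL/6 strain, which carry a tetracycline transactivator under Scl regulatory sequence and a BCR/ABL (BA) transgene that doxycycline keeps silent. The week-0 library is labelled as the control, before BA was induced, and the week-3 library came from mice 3 weeks after doxycycline withdrawal. Both groups carried both transgenes, so the comparison holds time and doxycycline withdrawal together, without mice lacking BA. LSKs of 3 mice were mixed in each library, with 1 library for each time point, so no difference below has a replicate check or a p-value.

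ERK signalling runs from activated receptors or kinases such as BCR/ABL through Ras, Raf and MEK to the ERK kinases. Active ERK drives transcription of its own inhibitors, a negative feedback. The dual-specificity phosphatases (Dusp) remove the activating phosphates from MAP kinases, whereas the Sprouty (Spry) and Spred proteins act upstream, at the level of Ras and Raf. Many of these transcripts are short-lived and behave as immediate-early or delayed-early genes, so their levels follow recent pathway activity in many cell types.

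The reads counted on genes came to 6356164 for week-0 and to 3886695 for week-3. Levels are given as FPKM, fragments scaled by a gene length in kilobases and by the library total. Differences are given as the log2 of FPKM at week-3 over FPKM at week-0. Intervals are exact 95% limits from the read numbers of both libraries and cover counting error only. A gene was called lower or higher where the ratio was at least 2-fold and its interval lay on that side of no change, among the 12192 genes with at least 20 reads over both libraries. By this rule 14.6% of the genes were lower and 10.3% were higher, and the median log2 ratio was 0.07, with quartiles at -0.57 and 0.56. In mixed cells, fewer cells of a type and less RNA per cell cannot be told apart.

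All 10 genes were above the minimum of 20 reads, although Dusp4 had only 17 reads at week-3 and reached the minimum through week-0. At week-3, 9 of the 10 were lower and 0 were higher, and Spred1 was the gene that missed the 2-fold limit. Their reads summed to 28503 at week-0 and 5176 at week-3, that is 4484 and 1332 RPM, reads scaled by the total of the library. The median log2 ratio of the genes was -1.68. Because the genes were chosen for this direction, the background of 14.6% stands beside the count without a reading.

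**Figure D1:**
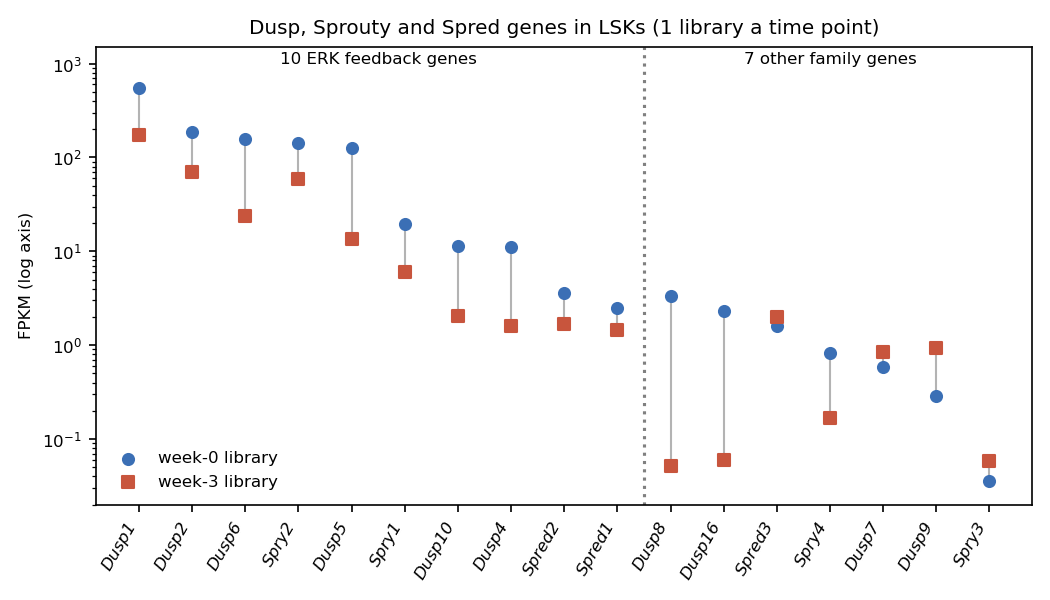
FPKM of each gene on a log axis in the week-0 library (circles) and the week-3 library (squares), with 1 library for each time point and no error bars. The 10 ERK feedback genes on the left all sit lower at week-3, while 4 of the 7 other family genes on the right, Dusp7, Dusp9, Spry3 and Spred3, sit higher without passing the rule for a call.

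Dusp1, Dusp2, Dusp4 and Dusp5 encode inducible phosphatases that act in the nucleus. Dusp1 (ENSMUSG00000024190, GRCm38 chr17:26505590-26508519, minus strand) acts on p38 and JNK as well as ERK, and is a classical immediate-early gene. It had 17864 reads and 547 FPKM at week-0, and 3460 reads and 173 FPKM at week-3. The level at week-3 was 3.16-fold lower, with a log2 ratio of -1.66 (95% interval -1.71 to -1.61). Dusp1 was the most abundant of the 10 genes in both libraries. It gave 62.7% of their reads at week-0 (exact interval 62.1 to 63.2) and 66.8% at week-3 (65.5 to 68.1). Without Dusp1 the other genes went from 10639 to 1716 reads, a log2 ratio of reads scaled by the library totals of -1.92 (-2.0 to -1.85), so the summed difference was not carried by Dusp1 alone.

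Dusp2 (ENSMUSG00000027368, chr2:127336159-127338376, plus strand), also called PAC-1 and first known from activated lymphocytes, had 2822 reads and 187 FPKM at week-0. It had 640 reads and 69.4 FPKM at week-3, 2.70-fold lower, with a log2 ratio of -1.43 (-1.56 to -1.31). Dusp2 was second to Dusp1 in level at both time points, and their ratio intervals did not overlap. Dusp5 (ENSMUSG00000034765, chr19:53529109-53542431, plus strand) encodes a phosphatase specific for ERK. It fell from 1997 reads and 127 FPKM to 131 reads and 13.6 FPKM. With a 9.32-fold difference and a log2 ratio of -3.22 (-3.49 to -2.96), Dusp5 had the lowest ratio of the 10 genes, and 2.16% of all tested genes had a lower one. Dusp4 (ENSMUSG00000031530, chr8:34807297-34819894, plus strand), which acts on ERK and JNK, was far below Dusp5 in level, at 11.2 FPKM and 195 reads at week-0. The week-3 values were 17 reads and 1.60 FPKM, 7.01-fold lower, with a log2 ratio of -2.81 (-3.62 to -2.09). The wide interval reflects the few reads at week-3.

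Dusp6 (ENSMUSG00000019960, chr10:99263231-99267488, plus strand) encodes the cytoplasmic, ERK-specific phosphatase MKP-3, whose transcript is widely used as a readout of ERK activity. It had 2812 reads and 158 FPKM at week-0. In the week-3 library 259 reads gave 23.8 FPKM, a 6.64-fold lower level and a log2 ratio of -2.73 (-2.92 to -2.55). Dusp6 therefore lay near the level of Dusp2 at week-0 and well below it at week-3. Dusp10 (ENSMUSG00000039384, chr1:184013302-184075636, plus strand), also called MKP-5, acts on p38 and JNK rather than ERK. It had 257 reads and 11.5 FPKM at week-0, and 28 reads and 2.05 FPKM at week-3. The log2 ratio was -2.49 (-3.11 to -1.92), and this interval overlapped those of the ERK phosphatases Dusp5 and Dusp6.

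The Sprouty and Spred proteins act above ERK in the pathway. Spry1 (ENSMUSG00000037211, chr3:37639947-37644598, plus strand) encodes a membrane-associated inhibitor of receptor tyrosine kinase signalling. It had 417 reads and 19.7 FPKM at week-0, and 78 reads and 6.03 FPKM at week-3. The level was 3.27-fold lower, with a log2 ratio of -1.71 (-2.08 to -1.36). Spry2 (ENSMUSG00000022114, chr14:105891949-105896819, minus strand), its close relative, was the more abundant of the pair, with 1867 reads and 141 FPKM at week-0. Its 477 reads at week-3 gave 58.9 FPKM, 2.39-fold lower, with a log2 ratio of -1.26 (-1.41 to -1.11). In the week-3 library Spry2 was thus behind only Dusp1 and Dusp2 in level.

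Spred1 and Spred2 encode relatives of the Sproutys with an EVH1 domain, and Spred1 brings the Ras inactivator neurofibromin to the membrane. Spred2 (ENSMUSG00000045671, chr11:19924375-20024026, plus strand) had 160 reads and 3.59 FPKM at week-0, and 46 reads and 1.69 FPKM at week-3. Its log2 ratio of -1.09 (-1.59 to -0.61) was just inside the 2-fold limit. Spred1 (ENSMUSG00000027351, chr2:117121374-117182279, plus strand) had 112 reads and 2.50 FPKM at week-0, and 40 reads and 1.46 FPKM at week-3. Its log2 ratio of -0.78 (-1.33 to -0.24) was just outside that limit, and 19.8% of all tested genes had a lower ratio. The intervals of Spred1 and Spred2 overlapped, so the limit separates them without a measured difference between them.

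**Figure D2:**
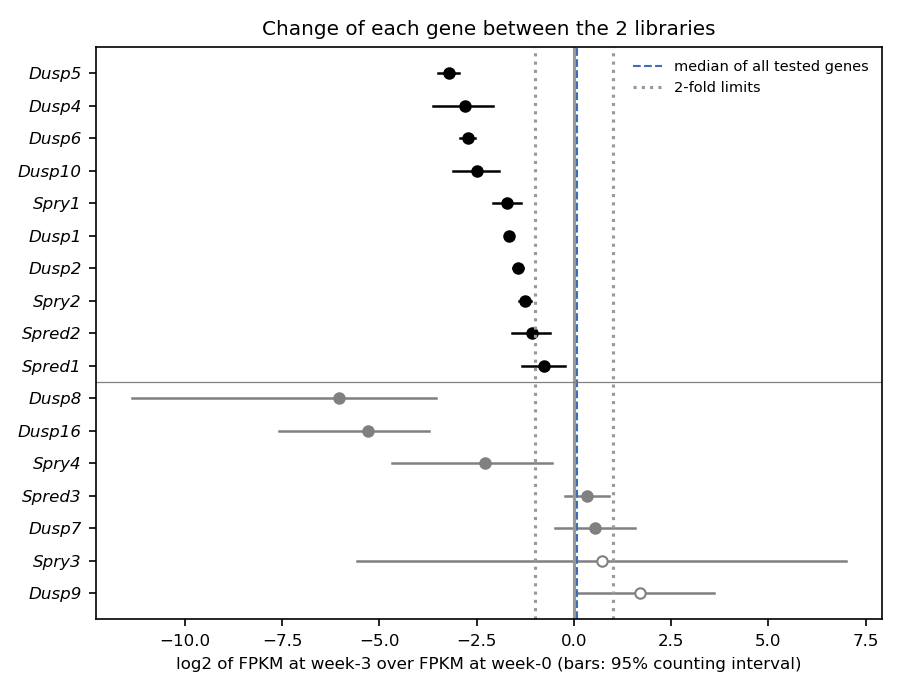
The log2 ratio of FPKM at week-3 over week-0 for the 10 genes (black) and the 7 other genes of the families (grey; open circles have under 20 reads), with 95% counting intervals as bars. The ratios run from -3.22 for Dusp5 to -0.78 for Spred1 among the 10 genes, and the dashed line marks the median of all tested genes at 0.07.

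Ordered by ratio from the lowest, the genes ran Dusp5, Dusp4, Dusp6, Dusp10, Spry1, Dusp1, Dusp2, Spry2, Spred2 and Spred1. The intervals of neighbours in this order overlapped for each pair except Dusp1 and Dusp2. The 4 lowest ratios all belonged to Dusp genes, and only these 4 passed a 4-fold limit, which 6.21% of all tested genes passed. At a limit of 1.5-fold all 10 genes were lower, against 21.4% of tested genes. With the 2-fold limit alone, without the interval, 9 genes were lower, against 15.6%. An exact test of edgeR with an assumed biological coefficient of variation of 0.1 also left 9 genes lower, against 13.5%. With an assumed coefficient of 0.4 it left 1 gene, Dusp5, against 1.63%. The number called therefore rests on how much variation between pooled libraries is assumed.

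**Figure D3:**
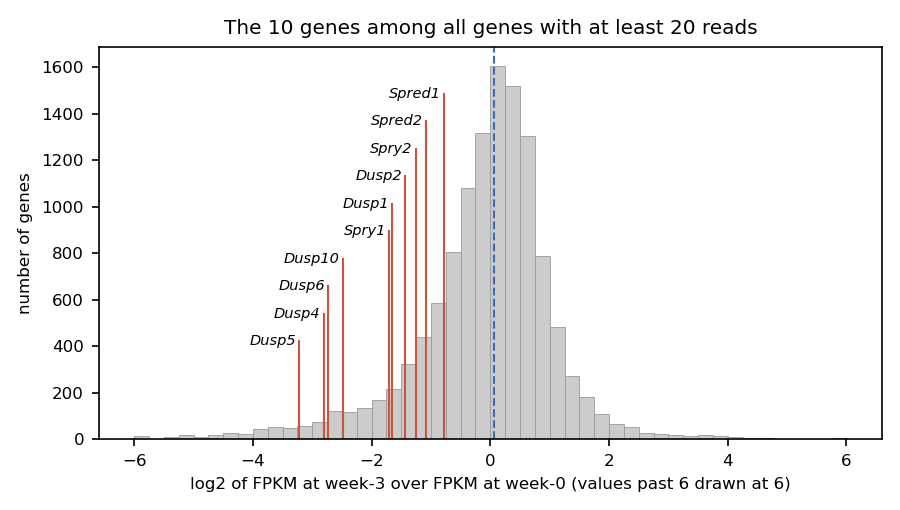
Histogram of the log2 ratio of week-3 over week-0 for the 12192 tested genes, with the number of genes on the y axis, ratios past 6 drawn at 6, and vertical lines for the 10 ERK feedback genes. The 10 lines lie left of the median of 0.07 (dashed), in the range from -3.22 to -0.78.

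The levels depend on the gene length used for FPKM, whereas the ratios between libraries do not. The deposited values imply a length of 5142 bases for Dusp1, longer than its own locus of 2930 bases. Dusp2 was another such case, at 2373 bases against a locus of 2218. The implied length exceeded the locus in 739 of 11208 genes with at least 20 reads at week-0. Its median ratio to the merged exon length was 1.24, so how the length was set is unknown. Over the merged exons of the GENCODE M21 annotation, 2697 bases, its level would be 1042 at week-0 and 330.1 at week-3 in the same unit. On that scale Dusp2 would be 222 and 82.2, and Dusp6 would be 141 and 21.3. Dusp1 was the highest of the 10 genes on either length. The neighbours Dusp6 and Spry2 at week-0 changed from 158 and 141 FPKM to 141 for both.

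Upstream sequence was read for the genes from RefSeq (build GRCm38.p6), which held the 250 bases before the transcription start of 9 of the 10, Dusp4 being the exception. Stretches of 150 bases, from position -200 to -51 counted back from the base before the start, are printed for Dusp1, Dusp2 and Dusp5 because these 3 genes held all matches to 7 searched motifs. Capitals mark the matches, on the strand of the gene.
Dusp1 (chr17:26508523-26508672, minus strand): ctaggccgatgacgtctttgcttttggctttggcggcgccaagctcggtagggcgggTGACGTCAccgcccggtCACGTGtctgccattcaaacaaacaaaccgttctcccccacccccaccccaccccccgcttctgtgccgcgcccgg
Dusp2 (chr2:127335959-127336108, plus strand): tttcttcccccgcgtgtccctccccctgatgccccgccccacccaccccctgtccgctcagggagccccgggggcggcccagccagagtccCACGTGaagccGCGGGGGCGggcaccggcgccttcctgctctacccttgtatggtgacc
Dusp5 (chr19:53528945-53529094, plus strand): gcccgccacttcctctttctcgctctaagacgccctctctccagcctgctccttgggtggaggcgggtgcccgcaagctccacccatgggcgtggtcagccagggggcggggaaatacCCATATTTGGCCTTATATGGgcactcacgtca

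Both strands were searched for each motif. Dusp1 held the cyclic AMP response element TGACGTCA from -143 to -136 and an E-box, CACGTG, from -126 to -121. Of 32851 promoters of the same length, 1.55% held that response element and 6.02% held that E-box. Dusp2 held an E-box from -109 to -104 and the Egr motif GCGGGGGCG from -98 to -90, which 2.57% of promoters held. Dusp5 held a pair of directly adjoining CArG boxes, the motif of serum response factor, from -82 to -73 and from -72 to -63. At least 1 CArG box was found in 1.47% of promoters and at least 2 in 6 promoters, 0.0183%. None of the 9 promoters held the AP-1 motif TGANTCA, the Ets motif CCGGAA or the TATA motif TATAAA, which 6.75%, 12% and 12.4% of promoters held. The matches describe letters in this window and are not evidence of binding, and no value here links them to the ratios. The 9 promoters had a GC content of 56.0% to 70.8%, above the median of 52.4% over all promoters.

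**Figure D4:**
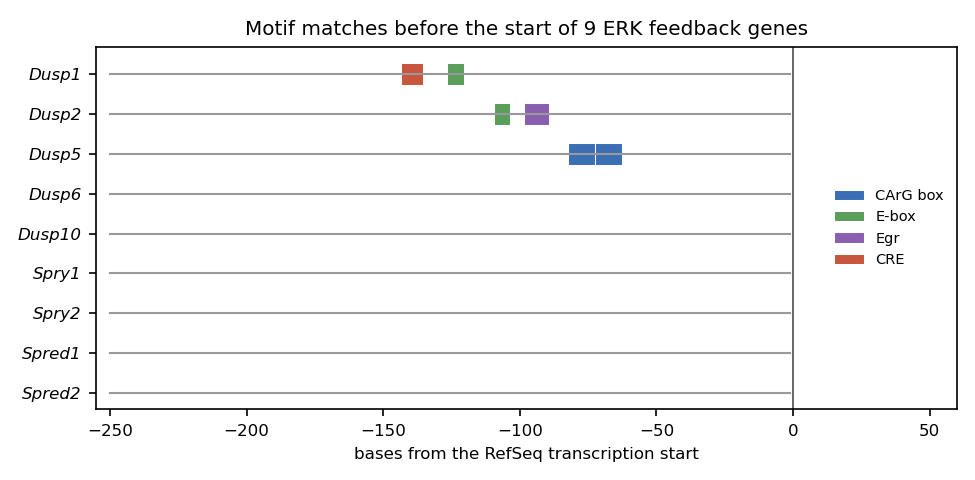
Positions of motif matches, in bases from the RefSeq transcription start, along the 250 bases before 9 of the 10 genes, with 1 line for each gene and coloured blocks for the CRE, E-box, Egr motif and CArG box. Matches were found for Dusp1, Dusp2 and Dusp5 only, between -143 and -63.

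The deposited annotation gave all 10 genes the term for negative regulation of the MAPK cascade, and gave the 6 Dusp genes a MAP kinase phosphatase activity, which restates the choice by name. The term for negative regulation of the ERK1 and ERK2 cascade was given to 4 of the 10 genes, Dusp1, Dusp6, Spry1 and Spry2. The loci of the 10 genes differed in size. Dusp2, Dusp1, Dusp6, Spry1 and Spry2 lie in compact loci of 2218 to 4871 bases, whereas Spred1, Dusp10 and Spred2 span 60906 to 99652 bases. The pentamer ATTTA, the core of the AU-rich elements known from short-lived transcripts, was present at least once in the 3' UTR of all 10 genes, against 64.9% of 10633 tested genes. A longer UTR holds a pentamer more often by its length, and 7 of the 10 UTRs were longer than the median of 895 bases, with Spred1 at 4330 and Spred2 at 2579. Per kilobase, Dusp2 had 6.88 pentamers, Dusp1 5.80, Spred1 2.77 and Dusp10 2.70, above the upper quartile of 2.61 over those genes. Dusp6 with 0.841 and Dusp5 with 0.902 lay under the median of 1.19, and the other 4 genes lay between the median and the upper quartile.

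In the same families, 7 genes were outside the choice, and 5 of them had at least 20 reads. Of these, 3 were lower and 0 were higher at week-3, against 14.6% and 10.3% of all tested genes. Dusp8 and Dusp16 encode phosphatases of JNK and p38. Dusp8 had 108 reads and 3.38 FPKM at week-0 and 1 read and 0.0512 FPKM at week-3, a log2 ratio of -6.05 (-11.36 to -3.54). Dusp16 had 192 reads and 2.33 FPKM at week-0 and 3 reads and 0.0595 FPKM at week-3, a log2 ratio of -5.29 (-7.58 to -3.72). Spry4, a Sprouty gene, went from 24 reads to 3 and from 0.823 to 0.168 FPKM, with a log2 ratio of -2.29 (-4.67 to -0.57). These 3 genes reached the minimum of 20 reads through week-0 alone. With so few reads at week-3, the rule could call them only lower.

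Spred3 and Dusp7 were called neither lower nor higher. Spred3 had 65 reads and 1.59 FPKM at week-0 and 50 reads and 2.0 FPKM at week-3, a log2 ratio of 0.33 (-0.23 to 0.89). Dusp7, a cytoplasmic ERK phosphatase like Dusp6, had 19 reads and 0.579 FPKM at week-0 and 17 reads and 0.847 FPKM at week-3, a log2 ratio of 0.55 (-0.49 to 1.57). The interval of Dusp7 lay wholly above that of Dusp6. Dusp9 with 5 and 10 reads and Spry3 with 1 read in each library were under the minimum.

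The genes of both families were also summed by role, including those outside the choice. The ratios of these sums are of summed reads scaled by the library totals, not of summed FPKM. The nuclear phosphatases Dusp1, Dusp2, Dusp4 and Dusp5 went from 22878 to 4248 reads, a log2 ratio of -1.72 (-1.77 to -1.67). The cytoplasmic ERK phosphatases Dusp6, Dusp7 and Dusp9 went from 2836 to 286 reads, a log2 ratio of -2.60 (-2.78 to -2.42), and 2812 and 259 of these reads were those of Dusp6. The sum therefore describes Dusp6, while Dusp7 and Dusp9 had ratios above 0. Dusp8, Dusp10 and Dusp16, which act on JNK and p38, went from 557 to 32 reads, a log2 ratio of -3.41 (-3.97 to -2.90). This sum is lower than the ratio of -2.49 for Dusp10 because it includes Dusp8 and Dusp16, which had 1 and 3 reads at week-3. The 4 Sprouty genes had a summed log2 ratio of -1.34 (-1.47 to -1.20), and the 3 Spred genes one of -0.60 (-0.90 to -0.31).

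The kinases on which these inhibitors act showed another pattern. Of 18 genes of the cascade from adaptors and Ras to ERK, 17 were tested, with a median log2 ratio of 0.16. In this list 1 was lower and 0 were higher, against 14.6% and 10.3% of all tested genes. Mapk3, which encodes ERK1 and was picked after its values were seen, had 8.11 FPKM at week-0 and 9.42 at week-3, with a log2 ratio of 0.22 (-0.11 to 0.53). Map2k2, which encodes the ERK kinase MEK2, had 36.1 and 44.9 FPKM, and Nras, a Ras gene, had 21.6 and 32.3 FPKM. These 3 genes were called neither lower nor higher.

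Other inhibitors of Ras and ERK signalling were lower in 6 of 16 tested genes and higher in 0, with a median log2 ratio of -0.27. Over all tested genes 14.6% were lower and 10.3% higher. Rgs1 and Rgs2, which encode GTPase activators for G proteins, had log2 ratios of -2.39 (-2.47 to -2.31) and -1.99 (-2.07 to -1.91). Rgs1 went from 103 to 19.7 FPKM and Rgs2 from 308 to 77.7 FPKM. Errfi1, a feedback inhibitor of EGF receptors, went from 98 reads to 8, and Sh2b3, the adaptor Lnk that restrains cytokine receptor signalling, from 987 to 113. Their log2 ratios were -2.91 (-4.16 to -1.87) and -2.42 (-2.71 to -2.14). Pebp1, the Raf kinase inhibitor protein, had 243 FPKM at week-0 and 289 at week-3.

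Transcription factors and targets downstream of ERK were lower in 12 of 20 tested genes, of 22 listed, and higher in 0. Over all tested genes 14.6% were lower and 10.3% higher. The list had a median log2 ratio of -1.37, and 8 genes were called neither. Among these 8, Myc went from 13.7 to 20.1 FPKM, a log2 ratio of 0.56 (0.41 to 0.70). Ccnd1 had a log2 ratio of 0.41 (-0.01 to 0.82). Egr1, an immediate-early transcription factor, went from 869 to 97.8 FPKM, a log2 ratio of -3.15 (-3.21 to -3.10). Fosb, an AP-1 subunit, had a log2 ratio of -2.21 (-2.26 to -2.15), and Ier2, an immediate-early gene, one of -1.50 (-1.55 to -1.45). Fosl1, another AP-1 subunit, went from 275 reads to 5. Fos, the prototype of the immediate-early genes, went from 1529 to 884 FPKM, and its log2 ratio of -0.79 (-0.82 to -0.76) did not reach the 2-fold limit. Fos and Fosb thus differed in ratio, as did Dusp1 and Dusp5.

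**Figure D5:**
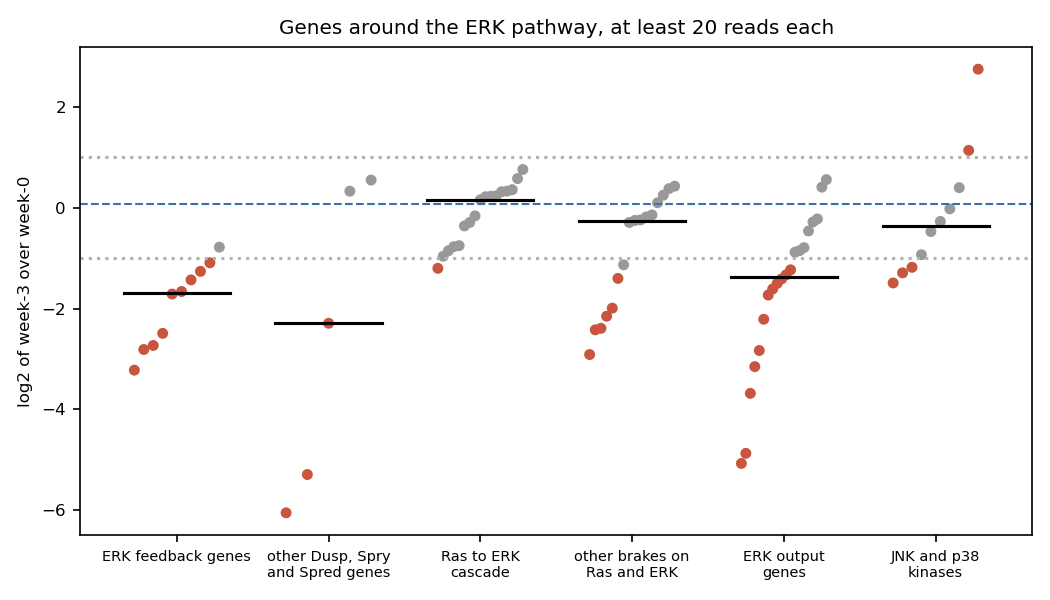
The log2 ratio of week-3 over week-0 for every gene with at least 20 reads in 6 gene lists, with red points for genes called lower or higher, grey points for the others, black bars for list medians, the dashed line for the median of all tested genes and dotted lines for the 2-fold limits. The median is -1.68 for the ERK feedback genes, 0.16 for the cascade from Ras to ERK and -1.37 for the ERK output genes.

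Over both libraries, the genes closest in level to Dusp1 were Actg1, D8Ertd738e and Ier3, at distances of 0.57, 0.61 and 0.64 in log2 FPKM over 2 values. Ier3, an immediate-early gene, had 477 FPKM at week-0 and 265 at week-3. With 2 libraries, such likeness describes level and ratio only.

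Markers of cell types differed between the same libraries, in which 14.6% of all tested genes were lower and 10.3% higher. The sorting markers Kit and Ly6a (Sca1) were present in both, at 16.9 and 11.5 FPKM for Kit and 19.8 and 14.8 FPKM for Ly6a. Of 9 LSK and stem cell markers 4 were lower and 1 was higher, and their summed reads went from 2195 to 929 RPM. All 7 mast cell markers were higher, from 128 to 3953 RPM, with Tpsb2 and Mcpt4 at 0 reads at week-0. Most of these 7, among them Cma1 with 4 reads at week-0, reached the minimum of 20 reads through week-3 alone. The rule could call those genes only higher. Of 11 tested neutrophil and monocyte markers, 9 were higher, and the 12 listed summed to 3734 and 16706 RPM. Mpo, Elane, Prtn3 and Ctsg had the most reads of these markers. Lyz2 and Csf1r, with log2 ratios of 0.20 and 0.92, were called neither lower nor higher. Ly6g had 5 reads in each library and was under the minimum. B and plasma cell markers were lower in 5 of 6 tested genes, from 1016 to 86.71 RPM. Erythroid markers were lower in 6 of 7, from 1254 to 103 RPM. Some of the lower B, plasma cell and erythroid markers reached the minimum of reads through week-0 alone. Of 6 T cell markers 1, Lck, had enough reads, and it was called neither lower nor higher. The sum of the 6 was 51.92 and 26.76 RPM. Lck gave 313 of their 330 reads at week-0 and 100 of 104 at week-3, so the sum describes Lck. Cd3e and Cd8a went from 5 and 3 reads to 0, too few to show a difference. The part of these cells in the ratios of the ERK feedback genes was not tested.

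Immediate-early genes can also respond to sorting and handling. Of 7 heat shock genes 6 were tested as a measure of handling, with a median log2 ratio of -0.09. Among them 2 were lower and 0 were higher, against 14.6% and 10.3% of all tested genes. Dnajb1, a heat shock co-chaperone, had 217 FPKM at week-0 and 61.3 at week-3, a log2 ratio of -1.82 (-1.96 to -1.69), within the range of the 10 genes. Hspa8, the constitutive chaperone with the most reads, had 333 and 257 FPKM. The part of handling in the ratios was not tested. The BA transgene was not analysed here. The mouse genes from which its partners take their names had log2 ratios of -0.75 (-1.03 to -0.47) for Abl1 and -1.07 (-1.39 to -0.76) for Bcr.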

How the data were processed

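The RNA-seq tables of BM LSKs cover week-0 and week-3, with 1 library at each time point and 3 mice mixed in each library. The authors prepared cDNA with a SMARTer kit and mapped trimmed paired reads to GRCm38 with TopHat, version 2.0.9 in the submitters' processing notes. The authors deposited counts, as whole reads on each gene, and FPKM, scaled by a length for each gene and by the reads counted on genes. The counting tool, annotation release and strand setting are not given in the sources used here, so reads of Dusp5 and Spry1 cannot be told apart from those of genes that overlap their exons on the other strand.

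The tables were joined by gene identifier, and 0 columns were left out as belonging to other series. Ratios of FPKM carry exact Clopper-Pearson intervals at 95%, from the reads of both libraries, and cover counting error only. A count of 0 was set to a floor of 3 reads, 0.472 RPM (reads scaled by the library total) at week-0 and 0.772 at week-3. Replicates are lacking, so no p-value is given. edgeR 4.0.16 (exact test, assumed coefficients of variation of 0.1 and 0.4, adjusted value under 0.05 together with the 2-fold limit) and DESeq2 1.42.0 (size factors) in R 4.3.3 served as alternatives. The procedure was also run on simulated counts that held planted changes and counting error alone. That run cannot speak to variation between mice or between libraries. Strand, exons and 3' UTRs come from GENCODE M21, and promoters from RefSeq.

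The members and lists were chosen with earlier results of these data known. Named are every member, every other gene of the families, up to 4 genes with the most reads and 2 with the largest ratios past the limit in each further list, and the 3 genes nearest to Dusp1. Marker genes of sorted cells and genes listed at 0 are named in addition. Myc, Ccnd1, Lyz2, Csf1r and Ly6g were named after their values were seen. Values of 1 gene of the cascade from Ras to ERK and of 1 B cell marker are not reported here.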

Additional observations from a re-analysis of the deposited data

How the results depend on the processing

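No paired analysis was possible because each time point has 1 library and the labels give no replicate numbers, so leaving out a replicate was not possible either. The number of the 10 genes called lower, 9, became 4 with a 4-fold limit and 1 with edgeR at an assumed coefficient of variation of 0.4, both stricter by construction. Of the other family genes, 0 were higher, against 1 (Dusp9, 5 and 10 reads) when genes above 0 reads in both libraries were admitted. Of these genes 3 were lower, and 2 without Spry4 with edgeR at 0.4 or with a minimum of 100 reads. The summed RPM (reads scaled by the library total) became 4983 at week-0 and 1505 at week-3 when the 10 genes with the most reads were left out of the totals, an alternative chosen after seeing the data. The median log2 ratio of the 10 genes stayed between -1.77 and -1.61, and of 50 recomputed ratios of single genes 0 reversed and 2 moved past their counting interval, those of Dusp1, to -1.74 with TMM and -1.75 with median-of-ratios scaling. These scalings moved the median of all genes by -0.08 and -0.09. Depth limits Dusp4 and Dusp10 at week-3, and the variation between mice and between pooled libraries is unknown.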

Other observations

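The kinases of the JNK and p38 branches, on which Dusp1, Dusp10, Dusp8 and Dusp16 act, differed in direction among themselves. Of 11 listed genes 10 were tested, with a median log2 ratio of -0.37. Among them 3 were lower and 2 were higher, against 14.6% and 10.3% of all tested genes. Map2k3, which encodes an activator of p38, went from 78.3 to 27.8 FPKM, a log2 ratio of -1.49 (95% counting interval -1.63 to -1.36). Mapk14, which encodes p38 alpha, had 18.5 FPKM at week-0 and 18.3 at week-3. Mapk13, which encodes p38 delta, went from 10 reads to 41 and from 0.618 to 4.14 FPKM, a log2 ratio of 2.75 (1.72 to 3.91). Mapk11, which encodes p38 beta, was the other higher gene, from 20 reads to 27, with a log2 ratio of 1.14 (0.25 to 2.05). Both higher genes were at a low level in both libraries, and so were the lower genes other than Map2k3. Mapk13 reached the minimum of 20 reads through week-3 alone.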
